A study of Mus musculus with 7 samples.

Results

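Complex I, NADH:ubiquinone oxidoreductase, was followed through the nuclear genes that encode its subunits and the Ndufaf assembly factors. Members were all genes of the deposited gene table whose mouse symbol begins with Nduf and whose mean estimated count over the 7 libraries was at least 10. There were 47 such genes among 22248 in the table, 39 named as subunits and 8 named Ndufaf, and every Nduf gene of the table passed that mean. The smallest mean belonged to Ndufa4l2, with 39.3 counts, and no Nduf gene lay outside the limit. All 47 also passed the low-count filter and were among the 14654 genes tested.

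RNA came from hippocampal synaptoneurosomes, a fraction of pinched-off nerve endings with attached postsynaptic pieces, of wild-type C57Bl/6J female mice. AM6545 blocks the cannabinoid receptor CB1 mainly outside the brain, which it enters poorly. The 4 AM6545 libraries (replicates B, D, E and F) came from mice that received it sub-chronically, and the 3 Vehicle libraries (replicates B, D and E) from mice that received vehicle. The labels give neither dose, duration nor age, and do not say how many mice went into a library or whether replicates are separate mice, so p-values measure the spread between these libraries, which may be technical.

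Complex I is the entry point of the mitochondrial respiratory chain. It oxidises NADH in the matrix, passes the electrons through a flavin and a chain of iron-sulphur clusters to ubiquinone, and pumps protons across the inner membrane. Its catalytic core is split between nuclear genes, which encode the hydrophilic arm (the NADH-oxidising N module and the quinone-reducing Q module), and mitochondrial genes, which encode the core of the proton-pumping membrane arm. Accessory subunits, all nuclear-encoded, surround the core and stabilise it, and assembly factors join the modules without staying in the finished enzyme. At synapses, mitochondria supply ATP and buffer calcium.

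Library totals ranged from 19174649 to 25894733 counts. The defining markers of neurons, astrocytes, microglia, oligodendrocytes, endothelial and mural cells and choroid plexus were all detected, with none of the 33 at 0. Levels are given in CPM, counts scaled to a library of 1e+06 counts by TMM. The sum of 8 neuronal markers ran from 9033 to 9102 CPM in AM6545 and from 8431 to 8638 in Vehicle, so that the groups did not overlap, although 3 of the 8 genes had a fold change below 1 in AM6545 and none had an unadjusted p under 0.05. The part of this difference in the results that follow was not tested. The sum of 5 oligodendrocyte markers was larger than the neuronal sum in both groups. It overlapped between the groups, at 16445 to 19575 CPM in AM6545 and 16330 to 22227 in Vehicle. Sums of the other markers overlapped between the groups: 2065 to 2352 against 2102 to 2557 CPM for astrocytes, 432 to 475 against 421 to 545 for microglia, 30.1 to 37.1 against 27.9 to 33.4 for endothelial and mural cells, and 401 to 1903 against 1525 to 2734 for choroid plexus, all 5 of whose markers had a lower mean in AM6545. None of the 5 endothelial and mural markers was lower. Of these other markers, 1 of astrocytes, Slc1a2, and 2 of microglia, C1qa and Tmem119, had an unadjusted p under 0.05 in edgeR. They were lower in AM6545, at log2 fold changes (AM6545 over Vehicle) of -0.45, -0.47 and -0.22. Over all genes tested 8.7% were lower at that threshold. Vehicle replicate B stood apart. Mitochondrially encoded genes took 9.83% of its counts (95% Wilson interval 9.81% to 9.84%, counting error only) and 5.07% to 6.66% of the other libraries' counts. Values without it are given for the gene groups. For single genes whose uncorrected fold change is printed, they are given where a call ended or a called value moved by over 1.5 times. Other called members moved as far. Among them were Ndufb8, from a log2 fold change of -0.47 to -0.23, and Ndufb11, from -0.41 to -0.21.

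Most accessory subunits, 27 of 30, were lower in AM6545 than in Vehicle at an unadjusted p under 0.05. None of them had an adjusted p under 0.05 in edgeR. Once the libraries' trends with GC content and transcript length were removed, 22 of 30 were lower, 8 of them at an unadjusted p under 0.05. The libraries of the groups overlapped for 5 of 30 accessory subunits, 5 of 7 core subunits and 6 of 8 Ndufaf genes. At an unadjusted p under 0.05, 32 of the 47 genes were lower and 0 were higher, beside 8.7% of all genes tested that were lower and 5.86% that were higher. With scaling by total counts the split over all genes was 943 lower and 1104 higher, against 1275 and 859 with TMM. None of the 47 had a Benjamini-Hochberg adjusted p under 0.05 in edgeR's quasi-likelihood test, where 1 gene of 14654 did (0.00682%), and the smallest adjusted p among them was 0.199. DESeq2 called 15 of them at that threshold (Ndufa4l2 had no adjusted p there) and limma-voom 11, all lower (for lower genes over the whole table, 1.43% and 1.79%). In bulk RNA, fewer cells or particles of a type and less RNA per particle cannot be told apart.

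The difference was uneven between the parts of the enzyme, which also differed in transcript length. Median lengths were 740 nt for the accessory subunits, 1131 nt for the core subunits and 1257 nt for the Ndufaf genes. Differences by length over all genes, and values after a correction for length, are given further on. All 30 accessory subunits had a log2 fold change (AM6545 over Vehicle) below 0, from -0.70 to -0.03 with a median of -0.44, and 27 had an unadjusted p under 0.05. With scaling by total counts 29 of the 30 were below 0. Over all genes tested 48.6% were below 0 and the median was 0.01. Of the 7 nuclear-encoded core subunits 4 were below 0 and 2 passed the unadjusted threshold, with a median of -0.09. Of the 8 Ndufaf genes 5 were below 0 and 2 passed, with a median of -0.05. Every AM6545 library lay below every Vehicle library for 25 accessory subunits, 2 core subunits, 2 assembly factors and Ndufa4, beside 7.19% of all genes.

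**Figure D1:**
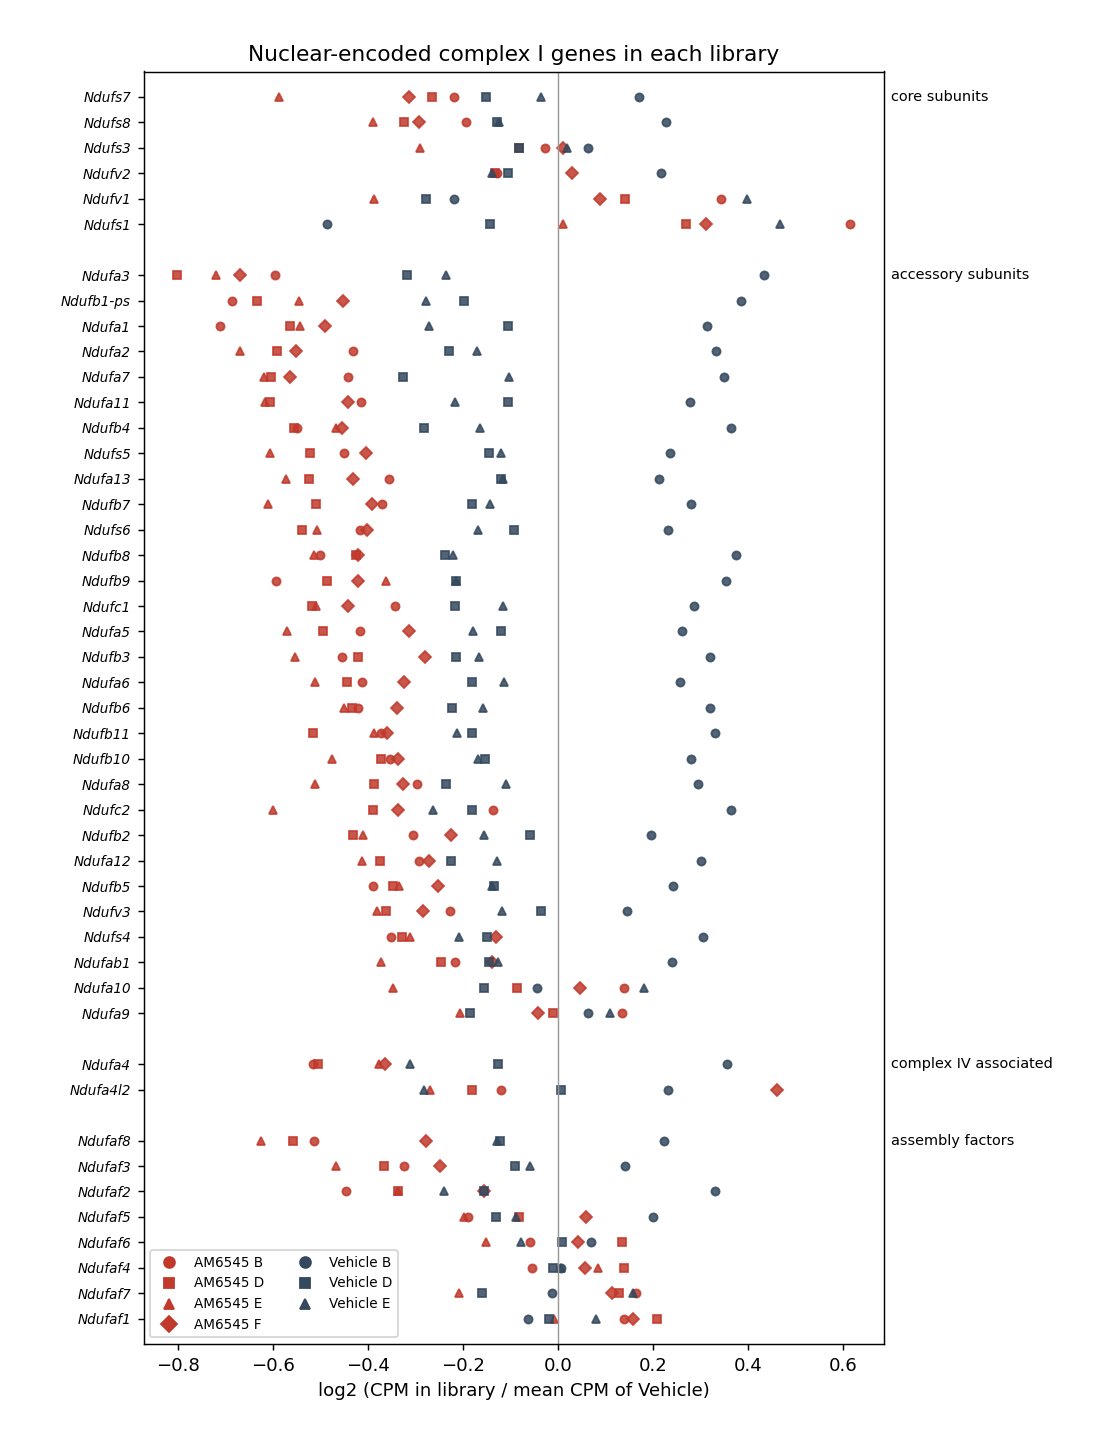
Level of 46 of the 47 genes in each library, as log2 of its CPM over the mean CPM of the 3 Vehicle libraries, ordered within each class by unadjusted fold change. Red symbols are AM6545 and dark symbols Vehicle, with 1 symbol shape per replicate letter; for 25 of the 30 accessory subunits every red symbol lies left of every dark one, and Vehicle replicate B is the highest library for 28 of the 30.

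Vehicle replicate B held the highest value of 37 of the 47 genes, 28 of them accessory subunits, and of 4015 of the 14654 genes tested. AM6545 replicate E held the lowest value of 29 of the 47 (61.7%), beside 18.0% of the genes tested. Leaving Vehicle replicate B out moved the median of the 39 subunit-named genes from -0.41 to -0.23 and that of the accessory subunits from -0.44 to -0.24. The median of the core subunits moved from -0.09 to -0.02 and that of the Ndufaf genes from -0.05 to 0.02. At an unadjusted p under 0.05, 24 of the 39 were then lower (3.69% of all genes), and none had an adjusted p under 0.05 in edgeR. The genes that lost their unadjusted call were Ndufs8, Ndufa8, Ndufa12, Ndufb5, Ndufc2 and Ndufs4, at log2 fold changes of -0.20 to -0.10. Leaving out Vehicle replicate E instead gave a subunit median of -0.48, and 24 of the 47 genes then had an adjusted p under 0.05 in edgeR, 23 of them lower (4.07% of all genes) and 1, Ndufs1, higher (2.3%).

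Core subunits of the N module bind NADH and hold the first iron-sulphur clusters. Ndufs1 (chr1:63143596-63176833 in GRCm38, minus strand), the largest nuclear core subunit and a carrier of several clusters, had 308.5, 242.8, 202.7 and 250.1 CPM in AM6545 replicates B, D, E and F and 144, 182 and 279 CPM in Vehicle replicates B, D and E. Its groups overlapped, because Vehicle replicate E was above 3 of the 4 AM6545 libraries. The log2 fold change was 0.32 (SE 0.21), with an unadjusted p of 0.161 and an edgeR adjusted p of 0.493. It was 0.62 without Vehicle replicate E (adjusted p 0.0357) and 0.13 without Vehicle replicate B. Ndufs1 had the highest fold change of the 47 genes, and its exons overlap those of Eef1b2 and Ino80dos on the opposite strand.

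Ndufv1 (chr19:4007384-4012806, minus strand), which carries the flavin and binds NADH, had 409.7, 356, 247 and 344 CPM in AM6545 and 278, 267 and 426 CPM in Vehicle. The groups spanned nearly the same range, with a log2 fold change of 0.07 (SE 0.19, edgeR unadjusted p 0.725). Ndufv2 (chr17:66078638-66101559, minus strand), its iron-sulphur partner, had 197, 196, 196 and 219 CPM in AM6545 and 249.8, 199.8 and 195 CPM in Vehicle. Its log2 fold change was -0.09 (SE 0.11, edgeR unadjusted p 0.418), and only Vehicle replicate B lay outside the range of the AM6545 libraries by more than 1 CPM.

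The Q module passes electrons to ubiquinone. Ndufs3 (chr2:90894634-90904827, minus strand), a scaffold of this module, had 144, 138.5, 119.9 and 148 CPM in AM6545 and 153, 138.5 and 149 CPM in Vehicle. Its groups overlapped, and its log2 fold change was -0.09 (SE 0.10, edgeR unadjusted p 0.368).

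Ndufs7 and Ndufs8, also core subunits of the Q module, were lower. Ndufs7 (chr10:80249121-80256794, plus strand), the holder of the last iron-sulphur cluster before ubiquinone, had 177, 171, 137 and 165 CPM in AM6545 and 232, 185 and 201 CPM in Vehicle. Ndufs8 (chr19:3908863-3912774, minus strand), which carries a pair of clusters before it, had 129, 118, 113 and 120.5 CPM in AM6545 and 173, 135 and 135 CPM in Vehicle. For both genes every AM6545 library was below every Vehicle library. The log2 fold changes were -0.34 (SE 0.11, edgeR unadjusted p 0.0115, adjusted 0.248) and -0.30 (SE 0.11, unadjusted p 0.0175, adjusted 0.263). Ndufs8 was at -0.17 (unadjusted p 0.0861) without Vehicle replicate B. Both had the opposite sign once the libraries' trends with GC content and transcript length were removed, as described further on.

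Among the accessory subunits, the distal membrane arm had all 11 genes lower at an unadjusted p under 0.05, with a median log2 fold change of -0.43, and its groups did not overlap for any of the 11. The N module had 7 of 7 lower (median -0.42), the proximal membrane arm 8 of 9 (median -0.47), and the Q module 1 of 2, Ndufa5. Without Vehicle replicate B the distal arm had 10 of 11 lower (median -0.23), the N module 5 of 7 (-0.27) and the proximal arm 6 of 9 (-0.35). After the GC and length correction described further on these were 4 of 11 (-0.14), 1 of 7 (-0.03) and 2 of 9 (-0.07), and Ndufa5 did not pass. Ndufab1, the mitochondrial acyl carrier protein, which sits at 2 places in the enzyme, was at -0.24 and did not pass. Neither did Ndufa9 (-0.03) and Ndufa10 (-0.05), whose libraries overlapped between the groups. Ndufa9 was above 0 with scaling by total counts, and Ndufa9 and Ndufa10 were above 0 after the correction.

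The 6 accessory subunits with the smallest unadjusted p, all lower, were Ndufs5, Ndufa1, Ndufa13, Ndufa3, Ndufa11 and Ndufs6, and 5 of them belong to the proximal membrane arm. No accessory subunit was higher. Ndufs5 (chr4:123712710-123718202, minus strand), on the intermembrane face of the membrane arm, had 102, 96.7, 91.2 and 105 CPM in AM6545 and 163, 125 and 128 CPM in Vehicle. The lowest Vehicle library was thus above the highest AM6545 library. The mean was 98.6 ± 5.97 CPM (SD, n = 4) against 139 ± 21.2 (SD, n = 3). This is a log2 fold change of -0.49 (SE 0.11), or 29.0% lower, with an unadjusted p of 0.000773 and an edgeR adjusted p of 0.199. Without Vehicle replicate B the log2 fold change was -0.36.

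Ndufa1 (chrX:37187588-37191163, minus strand), a small single-pass membrane protein needed early in assembly of the membrane arm, had 38.6, 42.8, 43.4 and 45.0 CPM in AM6545 and 78.6, 58.8 and 52.4 CPM in Vehicle. Ndufa3 (chr7:3617373-3620327, plus strand), another short membrane subunit, had 42.0, 36.4, 38.5 and 39.9 CPM against 85.7, 50.9 and 53.9 CPM. In both genes the AM6545 libraries lay close together and Vehicle replicate B was far above the other Vehicle libraries. The log2 fold change of Ndufa1 was -0.58 (SE 0.13, edgeR adjusted p 0.199) and that of Ndufa3 -0.70 (SE 0.16, edgeR adjusted p 0.199). Ndufa3 was the lowest of the 47, and without Vehicle replicate B it was at -0.41. Its exons overlap Tfpt on the opposite strand.

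Ndufa13 (chr8:69894180-69902558, minus strand), also known as GRIM-19, had 125, 111, 107 and 119 CPM in AM6545 and 185, 147 and 148 CPM in Vehicle. Ndufa11 (chr17:56717767-56722141, plus strand), which anchors the membrane arm near its middle, had 74.4, 65.2, 64.8 and 73.0 CPM against 120.3, 92.3 and 85.4 CPM. Ndufs6 (chr13:73319838-73328542, minus strand), a zinc-binding subunit at the junction of the N and Q modules, had 51.3, 47.2, 48.3 and 51.9 CPM against 80.5, 64.3 and 61.0 CPM. Each of these genes separated the groups without overlap. Their log2 fold changes were -0.47 (SE 0.11), -0.52 (SE 0.12) and -0.47 (SE 0.11), each with an edgeR adjusted p of 0.199. Exons of Ndufa13, Ndufa11 and Ndufs6 overlap those of Tssk6, Vmac and Mrpl36 on the opposite strand, and Ndufs5 and Ndufs6 have near-identical copies elsewhere in the genome.

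Promoters of respiratory genes are known to hold sites for the factors NRF1, GABP (an ETS factor), YY1 and ERR. RefSeq promoter windows of 300 bases (250 before to 50 after the start, GRCm38.p6) were found for 41 of the 47 members, 43 windows in all. Ndufa2, Ndufa4l2, Ndufaf6, Ndufb9 and Ndufs1 were among those not listed. The letters GCGC, any base, TGCGC in a row (NRF1), CCGGAAGT (ETS), AAGATGGCG (YY1) and TNAAGGTCA (ERR) were searched on both strands, with a window counted once for each motif and overlaps between motifs not removed. The NRF1 letters were in 23.3% of the members' windows and in 4.60% of all 32851 windows. The YY1 letters were in 14.0% and 1.40%, the ETS letters in 2.33% and 3.89%, and the ERR letters in 2.33% and 1.28%. A match of letters is a description and not a bound site.

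The sequences are the promoter of Ndufs5, the member with the smallest p, and those of Ndufb4 and Ndufs6, which hold more than 1 of the searched motifs. Ndufb4, of the distal membrane arm, had 71.1, 70.8, 75.3 and 76.0 CPM in AM6545 and 134, 85.5 and 92.9 CPM in Vehicle, a log2 fold change of -0.51 (SE 0.14, edgeR adjusted p 0.202) with no overlap between the groups, and of -0.28 without Vehicle replicate B. Each sequence runs 5′ to 3′ on the minus strand with matches in capitals. They lie at chr4:123718137-123718436, chr16:37654319-37654618 and chr13:73328433-73328732.
Ndufs5: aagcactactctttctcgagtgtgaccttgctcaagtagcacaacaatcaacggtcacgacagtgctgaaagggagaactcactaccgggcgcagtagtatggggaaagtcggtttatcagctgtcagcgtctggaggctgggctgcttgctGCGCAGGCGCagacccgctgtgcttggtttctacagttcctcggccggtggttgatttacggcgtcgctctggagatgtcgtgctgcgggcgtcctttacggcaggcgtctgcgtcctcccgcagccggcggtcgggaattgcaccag
Ndufb4: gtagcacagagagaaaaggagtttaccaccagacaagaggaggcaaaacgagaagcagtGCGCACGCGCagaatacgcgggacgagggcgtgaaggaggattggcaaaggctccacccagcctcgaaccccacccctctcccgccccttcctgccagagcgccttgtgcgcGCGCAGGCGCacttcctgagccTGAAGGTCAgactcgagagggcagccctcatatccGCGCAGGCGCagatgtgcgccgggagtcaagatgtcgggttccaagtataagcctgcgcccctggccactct
Ndufs6: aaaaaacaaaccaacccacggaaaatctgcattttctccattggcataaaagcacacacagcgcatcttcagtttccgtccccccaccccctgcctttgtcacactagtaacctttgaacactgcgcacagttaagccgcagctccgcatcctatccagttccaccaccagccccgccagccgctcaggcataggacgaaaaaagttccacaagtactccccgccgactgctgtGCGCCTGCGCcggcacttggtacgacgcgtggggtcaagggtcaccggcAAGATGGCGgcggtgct
The Ndufs5 window holds 1 NRF1 match, which begins at base 153. The Ndufb4 window holds 3 NRF1 matches and 1 ERR match. The Ndufs6 window holds an NRF1 match at base 235 and a YY1 match at base 284.

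Lower members were found both with and without the motifs. Of the 9 members with the NRF1 letters, 7 were lower at an unadjusted p under 0.05, and of the 32 without them 23 were. For the YY1 letters these numbers were 5 of 6 and 25 of 35. Over all genes tested 8.7% were lower at that threshold. Of 10 genes for regulators of respiratory genes, none had an adjusted p under 0.05 in edgeR. At an unadjusted p under 0.05 there were 2, Yy1 at -0.30 (SE 0.13) and Gabpb1, a GABP subunit, at 0.24 (SE 0.10). That is 1 of 10 in each direction, near the 8.7% lower and 5.86% higher over all genes tested. The call of Yy1 was lost without Vehicle replicate B (-0.20, unadjusted p 0.162), with scaling by total counts (p 0.0742) and after the GC and length correction (p 0.0525). That of Gabpb1 was also lost after the correction, at 0.08 (p 0.419). Both were lost with a replicate block (p 0.0715 and 0.112) and without each of several other single libraries. Nrf1 was at 0.08 (SE 0.12) and Ppargc1a, a coactivator of mitochondrial genes, at 0.03 (SE 0.11).

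A pair of Nduf-named genes encode proteins that associate with complex IV, cytochrome c oxidase, and not with complex I. Ndufa4 (chr6:11900292-11907497, minus strand) had 204, 205, 224 and 226 CPM in AM6545 and 373, 267 and 235 CPM in Vehicle, with no overlap. Its log2 fold change was -0.44 (SE 0.14, edgeR adjusted p 0.235), and -0.22 without Vehicle replicate B. Its hypoxia-inducible relative Ndufa4l2 (chr10:127514967-127517154, plus strand) was at the other end of the range, with 1.51, 1.45, 1.36 and 2.26 CPM against 1.93, 1.65 and 1.35 CPM. Its log2 fold change was -0.00 (SE 0.25), with the sign changing between scalings, and its exons overlap Shmt2 on the opposite strand.

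Assembly factors are needed while the enzyme is built. Ndufaf8 (chr11:120098928-120100705, plus strand), a small partner of Ndufaf5 in the early Q module, had 11.9, 11.5, 11.01 and 14.0 CPM in AM6545 and 19.8, 15.6 and 15.5 CPM in Vehicle. Ndufaf3 (chr9:108565537-108567434, minus strand), which works with Ndufaf4 on the Q module, had 46.3, 45.0, 41.9 and 48.8 CPM against 63.9, 54.4 and 55.6 CPM. Both separated the groups, at log2 fold changes of -0.49 (SE 0.13, edgeR adjusted p 0.199) and -0.35 (SE 0.10, edgeR adjusted p 0.212). Exons of Ndufaf3 overlap Impdh2 on the opposite strand.

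Ndufaf4 (chr4:24898083-24905001, plus strand), the partner of Ndufaf3, had 39.0, 44.6, 42.9 and 42.1 CPM in AM6545 and 40.7, 40.2 and 40.7 CPM in Vehicle, a log2 fold change of 0.06 (SE 0.09, edgeR unadjusted p 0.548) with overlapping groups. Ndufaf1 (chr2:119655446-119662827, minus strand), which acts on the membrane arm, had 43.6, 45.8, 39.4 and 44.2 CPM against 37.9, 39.1 and 41.9 CPM. It was the highest of the 8 Ndufaf genes at 0.13 (SE 0.10, edgeR unadjusted p 0.217), and its groups overlapped. Ndufaf5, Ndufaf6 and Ndufaf7 lay between -0.10 and 0.06, with Ndufaf6 changing sign with scaling by total counts, and Ndufaf2 was at -0.32 with an unadjusted p of 0.0508.

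Summed over genes, the accessory subunits made up 3118, 2970, 2860 and 3154 CPM in AM6545 and 4740, 3459 and 3596 CPM in Vehicle. The core subunits summed to 1745, 1553, 1286 and 1576 CPM against 1515, 1389 and 1765 CPM. The Ndufaf genes summed to 250.6, 259.8, 231 and 265 CPM against 283, 251 and 267 CPM. Only the accessory sum separated the groups. These sums and the ratio below were not corrected for the libraries' trends with GC content and transcript length. With that correction, the mean log2 level of the accessory subunits was 11.067 to 11.096 in AM6545 and 11.129 to 11.255 in Vehicle. The ratio of mean core to mean accessory level per transcript length (TPM, counts divided by transcript length and scaled to the same total in each library) was 1.36, 1.31, 1.12 and 1.24 in AM6545 and 0.841, 1.02 and 1.19 in Vehicle, so that Vehicle replicate E was within the AM6545 range.

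**Figure D2:**
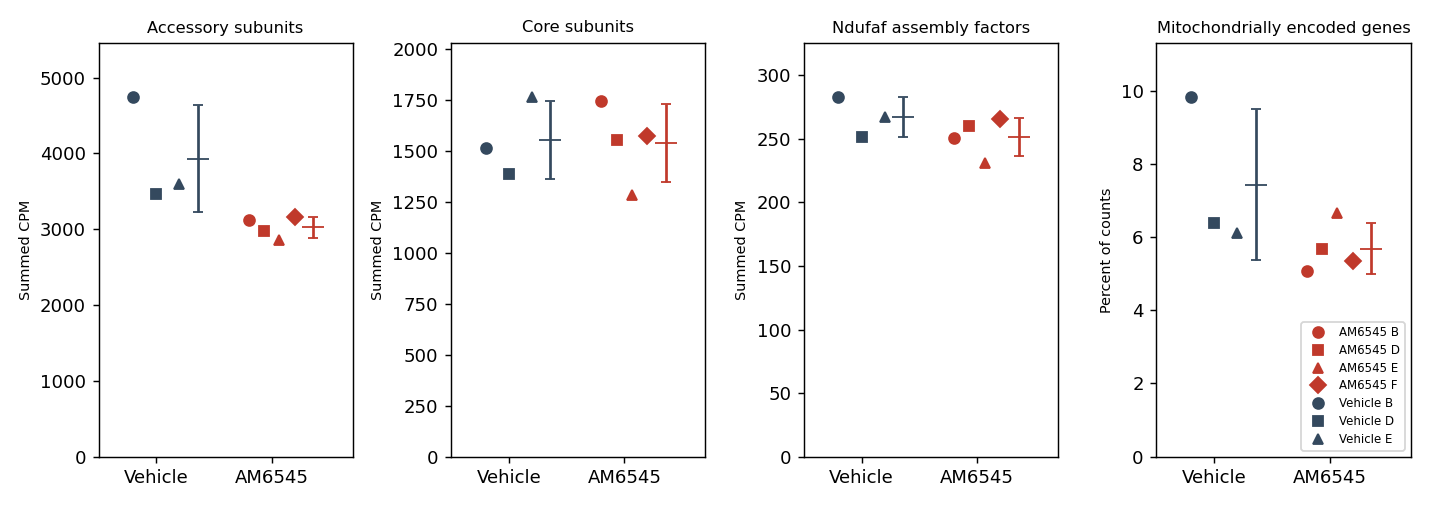
Summed CPM of the accessory subunits, the core subunits and the Ndufaf genes, and percent of counts from mitochondrially encoded genes, in each library, with the mean and SD of each group beside the points. Accessory sums of the 4 AM6545 libraries lie between 2860 and 3154 CPM, below the lowest Vehicle library at 3459 CPM, and Vehicle replicate B has the highest mitochondrially encoded share.

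The subunits differed widely in level per transcript length. Over the 7 libraries Ndufb9 (chr15:58933756-58939488, plus strand), a distal membrane arm subunit, was highest at 999 ± 170.2 TPM (SD, n = 7). Ndufa4 followed at 784 ± 149 TPM and Ndufb8 at 687 ± 117 TPM. The SDs of these neighbours overlap, but the genes share the same 7 libraries, so SDs do not test their order. The order was the same in the AM6545 means (900, 705 and 616 TPM) and the Vehicle means (1131, 888 and 782 TPM). Ndufb10 came next at 465 ± 55.3 TPM, below Ndufb8 by more than both SDs together. Ndufb9 and Ndufb8 share exons with the gene models Gm49356 and Gm20538 on the same strand, so that their counts may be divided. The 7 core subunits lay between 169 and 417 TPM, and 29 of the 30 accessory subunits between 155 and 999 TPM. The exception was Ndufb1-ps, a gene named as a pseudogene that stands in for Ndufb1, at 78.6 ± 17.5 TPM. The 8 Ndufaf genes lay lower, between 24.3 and 68.7 TPM, and Ndufa4l2 lowest at 3.37 TPM.

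Ndufb9 was also among the genes lower in AM6545, with 294, 316, 345 and 331 CPM against 567, 382 and 382 CPM in Vehicle. Its groups did not overlap and its log2 fold change was -0.46 (SE 0.14, edgeR adjusted p 0.218). Without Vehicle replicate B it was -0.25.

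**Figure D3:**
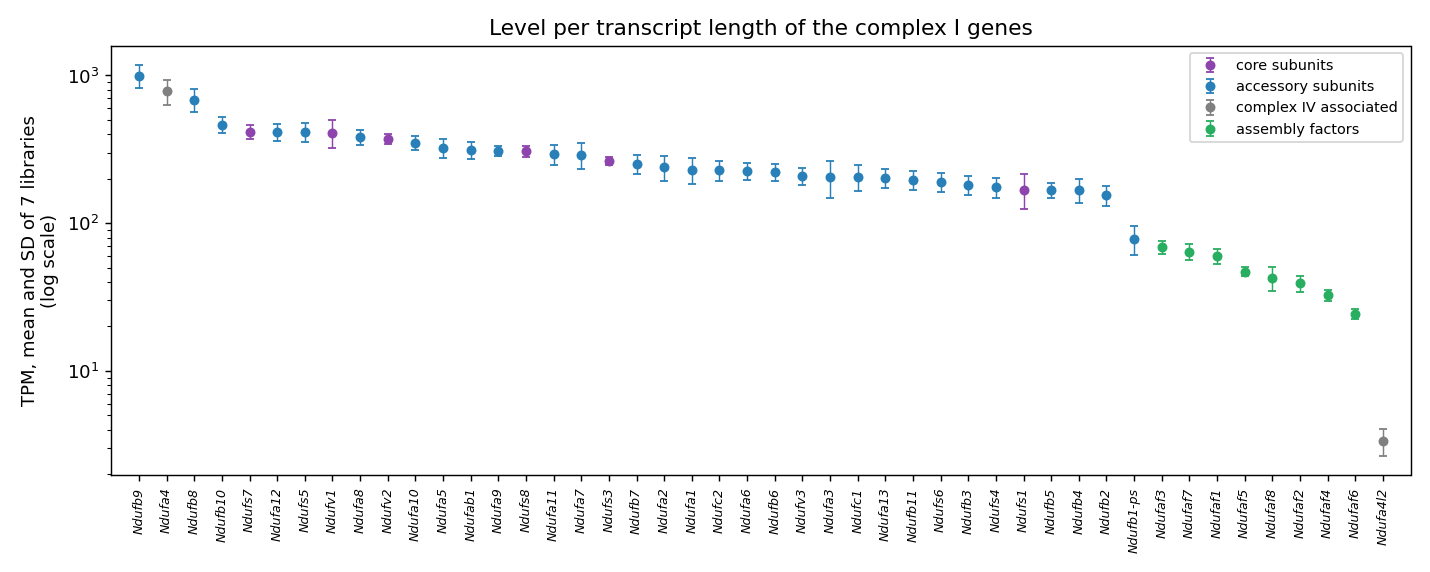
Level per transcript length (TPM, log axis) of 46 of the 47 genes in descending order, as the mean and SD of all 7 libraries and coloured by class. Most subunits lie between 155 and 999 TPM, the 8 assembly factors between 24.3 and 68.7 TPM, and Ndufa4l2 at 3.37 TPM.

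The difference was larger for genes with short transcripts, a property that the choice of the genes did not use. The 20 members with transcripts under 800 nt were all below 0, with a median log2 fold change of -0.46, and 19 had an unadjusted p under 0.05. The 15 members of 800 to 1200 nt were also all below 0, with a median of -0.31, and 10 passed. Of the 12 members of 1200 to 3000 nt, 6 were below 0, the median was 0.01, and 3 passed, Ndufa13, Ndufb2 and Ndufaf3. The length of Ndufb2 is a mean over a short and a long transcript, as given further on. Without Vehicle replicate B the medians of these classes were -0.28, -0.19 and -0.02, with 17, 6 and 3 genes passing, and 11 of the 15 in the middle class were below 0. Over all genes tested 8.7% were lower at an edgeR unadjusted p under 0.05, and 3.69% without Vehicle replicate B. These shares were not split by length. The 32 lower members had a median length of 715 nt and the other 15 a median of 1347 nt.

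Other genes of the same lengths differed in the same direction. The 455 genes tested with transcripts under 800 nt had a median log2 fold change of -0.40, the 934 of 800 to 1200 nt -0.22, and the 6320 of 1200 to 3000 nt -0.01. These medians were -0.24, -0.11 and -0.00 without Vehicle replicate B. Across the 47 members, which share the same 7 libraries and are not independent, Spearman's rho of the fold change was 0.79 with length and -0.28 with GC content. Across the genes tested that had a length it was 0.25 and -0.42. The libraries themselves differed in this respect. The slope of log2 level on length, taken relative to the mean over the 7 libraries, was 0.011 to 0.069 per doubling in the AM6545 libraries and -0.099 to -0.002 in the Vehicle libraries. The slope on GC content was -0.128 to -0.031 per 10 percentage points against 0.052 to 0.143.

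After correcting each library for both trends the median of the subunit-named genes was -0.04, that of the accessory subunits -0.08 and that of the core subunits 0.12. Across the 47 members Spearman's rho of the corrected fold change was 0.10 with length and 0.36 with GC content. For the 39 subunit-named genes rho with GC content was -0.13 before the correction and 0.52 after it. The corrected values of the members thus still followed GC content. At an unadjusted p under 0.05, 9 of the 47 were lower (4.49% of all genes) and 0 higher (2.25%), and none had an adjusted p under 0.05 in edgeR. The 9 were Ndufb2, Ndufc1, Ndufb4, Ndufab1, Ndufs4, Ndufb3, Ndufaf3, Ndufa13 and Ndufb5, with corrected log2 fold changes of -0.39 to -0.18. Ndufb2, an accessory subunit of the distal membrane arm, was lowest. Its length of 2183 nt is a mean that mixes short and long transcripts. Ndufb2-202 (455 nt) held 48.4% of its Vehicle counts and was at -0.43 (SE 0.14). Ndufb2-205 (4371 nt) held 41.4% and was at -0.16 (SE 0.08). The correction used the mean length, and Ndufab1 and Ndufs4 also mix transcripts of different lengths. Ndufb2 had 58.0, 53.1, 53.9 and 61.3 CPM in AM6545 and 82.0, 68.7 and 64.2 CPM in Vehicle. It stayed at -0.34 before and -0.39 after the correction (edgeR unadjusted p 0.00827 and 0.00414). Its exons overlap Gm42420 on the same strand and Braf on the opposite strand. Ndufc1, of the proximal membrane arm, moved from -0.45 to -0.33 (unadjusted p 0.00300 and 0.00440), and was at -0.28 without Vehicle replicate B and uncorrected. By contrast Ndufs5, Ndufs6 and Ndufa11 moved to -0.03, 0.00 and 0.03. Ndufb9, Ndufaf8 and Ndufa1 moved to -0.05, -0.07 and -0.11, and Ndufa3 and Ndufa4 to -0.18 and -0.15. None of these passed the unadjusted threshold after the correction.

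**Figure D4:**
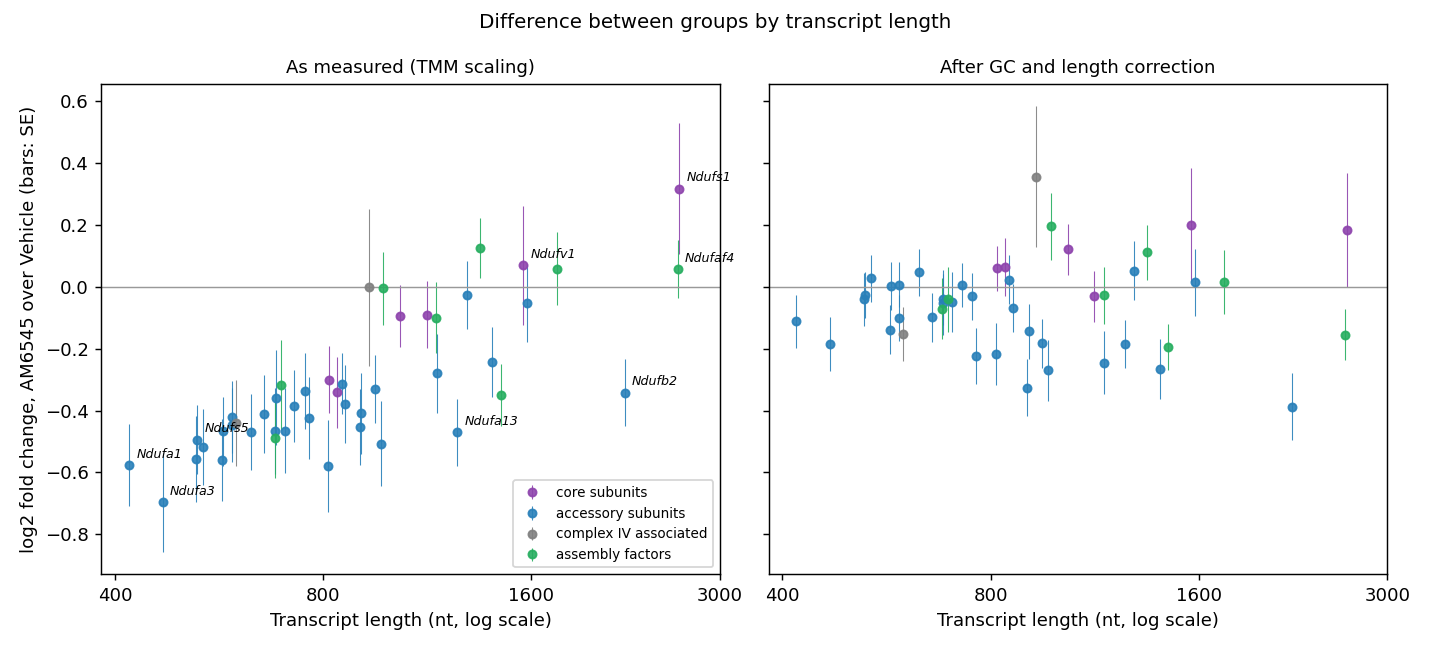
Log2 fold change (AM6545 over Vehicle, with SE) of 46 of the 47 genes against mean transcript length on a log axis, as measured on the left and with the trends of each library on GC content and length removed on the right. On the left the members under 800 nt have a median of -0.46 and run from -0.70 to -0.32. Those of 1200 to 3000 nt have a median of 0.01 and run from -0.47 to 0.32. On the right the 3 length classes have medians between -0.04 and 0.02. Medians and ranges are over all 47 genes.

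Single isoforms were compared in the same way. Of 143 transcripts of the 47 genes that were tested, none had an adjusted p under 0.05 in edgeR (6 of 33962 transcripts did, 0.0177%), while DESeq2 called 6 (1.27% of all transcripts). At an unadjusted p under 0.05, 40 were lower (4.5% of all transcripts) and 2 were higher (3.89%). These counts were 26 and 1 without Vehicle replicate B. The lower transcripts with the smallest p were Ndufa3-201, Ndufs5-201 and Ndufa13-201, at log2 fold changes of -0.68 (SE 0.15), -0.49 (SE 0.11) and -0.47 (SE 0.11). For 24 of the genes a single transcript held over 90% of the Vehicle counts, and for 5 the main transcript held under 50%. Ndufs5-201 held 99.0% in both groups and Ndufa13-201 all of them.

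Higher transcripts were Ndufv1-202 and Ndufaf1-203. Ndufv1-202, a shorter coding transcript of 1436 nt, had 66.2, 95.9, 80.7 and 84.0 CPM in AM6545 and 59.1, 60.4 and 47.8 CPM in Vehicle. Its groups did not overlap, unlike those of the gene, and its log2 fold change was 0.55 (SE 0.15, edgeR unadjusted p 0.00696, adjusted 0.559). Its part of the gene's counts was 25.0% ± 6.76 (SD, n = 4) after AM6545 and 18.4% ± 6.10 (SD, n = 3) after vehicle. Ndufaf1-203 was at 0.30 (SE 0.11, edgeR unadjusted p 0.0301, adjusted 0.564), its groups overlapped, and its call was lost without Vehicle replicate B (unadjusted p 0.0647). Next among the higher transcripts, Ndufv3-205 was at 0.65 (SE 0.33, edgeR unadjusted p 0.0928), with at most 1.30 CPM in any library.

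The rest of the respiratory chain is given for comparison. The 7 mitochondrially encoded subunits of complex I, which form the core of its membrane arm, were all below 0, with log2 fold changes of -0.84 to -0.31 and a median of -0.46, and 6 had an unadjusted p under 0.05. Their median was -0.19 without Vehicle replicate B and -0.41 after the GC and length correction. Among 40 nuclear-encoded genes of complexes II to V, 34 were below 0 and 27 passed, with a median of -0.45, which was -0.26 without Vehicle replicate B and -0.01 after the correction. All 10 complex IV genes passed, as did 12 of 17 for complex V, 5 of 9 for complex III and 0 of 4 for complex II. Leaving out Vehicle replicate B gave 9 of 10, 9 of 17, 5 of 9 and 0 of 4. After the correction these were 5 of 10, 2 of 17, 1 of 9 and 0 of 4. Of the 7 mitochondrially encoded genes 6 passed after the correction. Over all genes tested 8.7% were lower at an edgeR unadjusted p under 0.05, 3.69% without Vehicle replicate B and 4.49% after the correction. Of 10 assembly factors of complex I with other names, 3 were below 0, none passed and the median was 0.09. In none of these lists did a gene have an adjusted p under 0.05 in edgeR.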

How the data were processed

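Per the submitters' processing notes, Salmon 1.5.2 and the mm10 build were used; the annotation release and strand setting are not given in the sources used here. Per the labels, RNA was extracted by RNeasy and turned into libraries by SMARTer Ultra Low Input chemistry. The authors deposited estimated counts per gene and per transcript, not scaled, for 4 AM6545 and 3 Vehicle libraries. Symbols, positions, transcript lengths and GC content came from GENCODE release M21 (GRCm38), in which 22194 of 22248 gene and 101527 of 102392 transcript identifiers were found without their version numbers. Lengths may differ from those used for counting.

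Counts were rounded to whole numbers and tested with edgeR 4.0.16 (quasi-likelihood, robust, TMM scaling, filterByExpr, no covariates; R 4.3.3), with Benjamini-Hochberg adjustment over all 14654 genes or 33962 transcripts and a threshold of 0.05. Alternatives used DESeq2 1.42.0, limma-voom (limma 3.58.1), other scalings and filters, a block, a lowess correction for GC content and length (span 0.3), and each library left out. TPM values used the deposited transcript counts. The code was tested on simulated data. The labels give no batch or date.

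The members and lists were chosen with earlier results of these data known. Named were the nuclear core subunits, the 6 other subunits with the smallest p lower and up to 3 higher, 2 assembly factors per direction, the 2 genes highest in TPM, the gene nearest the count limit, and 3 transcripts per direction; genes named beyond these were chosen after their values were seen. For 1 member the values are not reported here, although counts, medians and sums over the members include it. Near-identical copies match a main transcript at 95% or more identity over 50% or more of its length. Of the members, 5 have such a copy, and exons overlap another gene's on the opposite strand in 18 and on the same strand in 3.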

Additional observations from a re-analysis of the deposited data

Results flagged for a closer look

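Of 28 values per group tested for a sample far from the others, 2 stood apart by Dixon's criterion, where chance gives about 1.4. Ndufv2 was at 219.4 CPM in AM6545 replicate F, while replicates B, D and E had 196 to 197 CPM. Ndufa4l2 was at 2.26 CPM in AM6545 replicate F, while replicates B, D and E had 1.36 to 1.51 CPM.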

How the results depend on the processing

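Over all genes, the count with an adjusted p under 0.05 was 1, and it was 2 with a mean of at least 50 counts, 247 with DESeq2, 394 with limma-voom, 0 after the GC and length correction (657 lower and 329 higher at an unadjusted p under 0.05), and 0 to 944 with 1 library left out. Of the 47 complex I genes 0 were called, against 15 with DESeq2, 11 with limma-voom and 0 to 24 with 1 library left out, where 24 was without Vehicle replicate E. The 32 lower at an unadjusted p under 0.05 became 9 after the GC and length correction, 3 with that correction and the replicate block, and 26 to 34 with 1 library left out. The subunit median of -0.41 became -0.041 after the correction, -0.040 with the block as well, and -0.49 to -0.23 with 1 library left out. The assembly factor median of -0.05 reversed to 0.031 with limma-voom, 0.024 without Vehicle replicate B (-0.091 to 0.024 with 1 library left out) and 0.036 with the assembly factors of other names. Of transcripts 6 were called, against 27 with no low-count filter, 10 with a mean of at least 50 counts, 431 with DESeq2, 0 with the replicate block and 1 to 14 with 1 library left out. Complex I transcripts numbered 0, and 6 with DESeq2.

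After the GC and length correction 14 of the 47 genes changed sign. Without Vehicle replicate B 7 did, none of them past the unadjusted threshold with all libraries. Among the genes chosen by the naming rule, after the GC and length correction, without and with the block, Ndufs7 was at 0.064 and 0.084, Ndufs8 at 0.059 and 0.081, Ndufs3 at 0.12 and 0.11, Ndufa11 at 0.027 and 0.032, Ndufs6 at 0.0034 and 0.0092, Ndufaf4 at -0.16 and -0.16, and Ndufa4l2 at 0.36 and 0.20. The others moved from below to above 0 after the correction. They were Ndufa9, Ndufa10, Ndufa6, Ndufb7, Ndufb10 and Ndufv3, at 0.0061 to 0.052, and Ndufaf6, at 0.20. With 1 library left out, Ndufv1 (0.07 with all) ran from -0.051 to 0.32, below 0 without AM6545 replicate B, Vehicle replicate B or Vehicle replicate D. Ndufv2 ran from -0.15 to 0.035, the latter without Vehicle replicate B, and Ndufa4l2 from -0.20 to 0.13. Ndufa4l2 was also at 0.034 with total counts and 0.0061 with no filter. The cause of these changes was not tested.

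Replicate letters B, D and E occur in both groups, and the labels do not say whether samples with the same letter belong together. The same-letter correlations of deviations from the group means were -0.34, -0.14 and -0.27 over 14654 genes. Between libraries of different letters they ran from -0.07 to 0.39. Deviations within a group cancel out, so the same-letter and different-letter values depend on each other. Whether the letters mark pairs was not tested. With the letter as a replicate block, 31 of the 47 genes were lower at an unadjusted p under 0.05 (5.31% of all genes), with 0 adjusted calls, and 1 gene was called in all. Totals limit Ndufa4l2 most, with a mean of 39.3 counts.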
